A study of Mus musculus with 6 samples.

Results

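The clustered histone genes encode the proteins around which DNA is wrapped and the linker histones that sit between nucleosomes. They were taken as all genes whose symbol begins with Hist1h, Hist2h, Hist3h or Hist4h in the deposited table of gene counts, which gave 63 of 17551 genes. By cluster, 50 lie in Hist1, 9 in Hist2, 3 in Hist3 and 1 in Hist4. By type, 6 encode the linker histone H1, 16 H2A, 16 H2B, 12 H3 and 13 H4. They were measured by RNA-seq in mouse neurospheres, clusters of neural stem and progenitor cells grown in suspension.

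The 3 G328V libraries (replicates 1, 2 and 3) came from neurospheres labelled ACVR1 G328V, and the 3 WT libraries (replicates 1, 3 and 70A) from neurospheres labelled ACVR1 WT. The sample titles carry the tags NPAC for G328V and NPC for WT, which the labels do not explain, so whether both groups share alleles other than ACVR1 is not known here. ACVR1 is a receptor for bone morphogenetic proteins, and G328V is a glycine-to-valine change in it. All cultures were on a C57BL/6 background in DMEM/F12 with N2, B27, EGF and FGF, and no treatment or age is named. Libraries were ribodepleted and stranded, and a TruSeq kit and a Pico kit are both named for them. Each group is described as biological replicates, but the animals or cultures behind them are not given, so a p-value reflects only how far these libraries differ within a group, which may be technical.

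Clustered histone genes are transcribed mainly in S phase, when new nucleosomes are needed behind the replication fork. Their mRNAs end in a stem-loop that is bound by the stem-loop binding protein SLBP, in place of a poly(A) tail, and they are degraded when DNA synthesis stops. Genes for the core types H2A, H2B, H3 and H4 lie side by side and encode near-identical proteins. Among them, H3.1 and H3.2 differ at a single residue, a cysteine in H3.1 and a serine in H3.2. ACVR1 mutations in human brainstem gliomas often accompany a mutation in a gene for H3.1, which is background and was not measured here.

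The stem-loop is shown because it is the feature that the members share and that stands in place of a poly(A) tail. Ribodepleted libraries, as here, are not selected on that tail. It was found in the annotated transcripts of 44 of the 63 members, and in 43 of the 45 members with at least 60 annotated bases after the stop codon. The exceptions among those 45 were Hist1h2bc and Hist2h2be. Over all GENCODE M21 transcripts, 111 of 141767 (0.0783%) held it. In the members it began 21 to 58 bases after the stop codon, with a median of 31. Hist1h2bp and Hist2h3c1 are left out of these distances, since their stem-loop was found in a transcript other than the main coding one. One member of each type follows, and Hist4h4 with them, 5′ to 3′ on the gene's own strand (GRCm38), with the 6 paired bases of each arm in capitals and the 4-base loop between them.
Hist1h1c (chr13:23739507-23739532, plus strand): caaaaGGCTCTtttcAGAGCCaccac
Hist3h2a (chr11:58955167-58955192, plus strand): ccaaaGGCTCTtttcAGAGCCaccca
Hist3h2ba (chr11:58949344-58949369, plus strand): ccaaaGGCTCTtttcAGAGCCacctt
Hist1h3a (chr13:23761885-23761910, minus strand): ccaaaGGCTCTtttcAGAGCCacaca
Hist1h4h (chr13:23531453-23531478, plus strand): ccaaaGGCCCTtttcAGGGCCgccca
Hist4h4 (chr6:136803993-136804018, minus strand): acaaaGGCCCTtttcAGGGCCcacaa
The first 4 carry the same stem and loop, which 24 members shared, and none of those 24 was an H4 gene. The form printed for the H4 genes was found in 7 H4 members and in no other type.

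Acvr1 was at 244 to 650 CPM in G328V, against 42.4 to 100.04 CPM in WT, where CPM are counts relative to library sizes scaled by the TMM method. Gene counts do not tell the mutant from the wild-type transcript. Xist was at 443 to 795 CPM in G328V and 0.250 to 1.18 CPM in WT, and Ddx3y, a Y-linked gene, was at 0 to 0.0326 CPM in G328V and 17.7 to 50.9 CPM in WT, so genotype cannot be told apart from sex in any comparison. The libraries held 115953495 to 182626231 counts in G328V and 120457925 to 191115532 in WT. WT replicate 1 stood apart, with Olig1 at 614 CPM and Olig2 at 416 CPM, against at most 1.07 and 0.938 CPM in every other library. Sox2, a marker of neural stem cells that does not define them alone, was at 145 to 237 CPM in G328V and 134 to 179 CPM in WT. G328V replicate 2 had the highest sum over 9 astrocyte genes, 1832 CPM, against 340 to 600.4 CPM in the other G328V libraries and 237 to 452 CPM in WT, of which Sparcl1 alone made 1666 CPM. Without Sparcl1 that library had the lowest sum over the other 8 genes, 166 CPM, against 339 and 434 CPM in the other G328V libraries and 227 to 423 CPM in WT. The summed levels and the genes that lead each comparison are given with and without these libraries.

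Summed over the 63 members, clustered histone mRNA came to 2605, 4344 and 4016 CPM for G328V replicates 1, 2 and 3, against WT values of 2007, 3207 and 2993 CPM in replicates 1, 3 and 70A. The groups overlapped, since G328V replicate 1 lay below WT replicates 3 and 70A. The means were 3655 ± 924 CPM in G328V and 2736 ± 641 CPM in WT (SD, n = 3 each), a 1.34-fold difference or 0.42 on the log2 scale. Without WT replicate 1, the lowest library, the log2 difference of the sum was 0.24. Without G328V replicate 2, the highest, it was 0.28, and without G328V replicate 1 it was 0.61. In bulk RNA, fewer cells making these mRNAs and less of them in each cell cannot be told apart.

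Of the 63 members, 60 passed the filter on low counts and were tested. None was called at an adjusted p under 0.05 by edgeR's quasi-likelihood test, which called 0% of all 14643 genes. At an unadjusted p under 0.05, 3 of the 60 members were higher in G328V and 0 lower, where 1.88% of all genes tested were higher. That count was 0 with the replicate number as a block and when either WT replicate 3, WT replicate 70A or G328V replicate 2 was left out. It was 1 when either WT replicate 1 or G328V replicate 3 was left out, and 6 when G328V replicate 1 was. DESeq2 called 0 members as well, and 1.05% of all its genes, and limma-voom, the newer edgeR fit and edgeR on the Cufflinks values called 0 members and 0% of genes. The smallest adjusted p among members was 0.997 by edgeR and 0.106 by DESeq2, which gave it to Hist3h2bb-ps.

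Fitted log2 differences were positive for 59 of the 60 tested members, where 49.7% of all genes tested were positive. Their median was 0.39, beside -0.0039 over all genes tested. The sole negative value belonged to Hist1h2af, an H2A gene, at -0.13 ± 0.52 (SE, here and below). The members share libraries and stretches of sequence, so these signs are not independent of each other. In each library the median over tested members of the log2 level minus the gene's mean was -0.22, 0.42 and 0.44 in G328V, against -0.61, 0.06 and -0.045 in WT, and the groups overlapped. Without WT replicate 1, 51 of 60 were positive with a median of 0.24, and without G328V replicate 3, 53 of 60 were positive with a median of 0.31.

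Groups did not overlap for 5 of the 60 members (8.33%), all with G328V higher, where 5.25% of all genes had groups apart in that direction. They were Hist1h2bp, Hist1h3d, Hist2h2bb, Hist2h2be and Hist3h2bb-ps. Which library was low or high was shared among members. WT replicate 1 was the lowest of the 6 libraries for 42 of the 60, and G328V replicates 2 and 3 were the highest for 25 and 24.

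**Figure D1:**
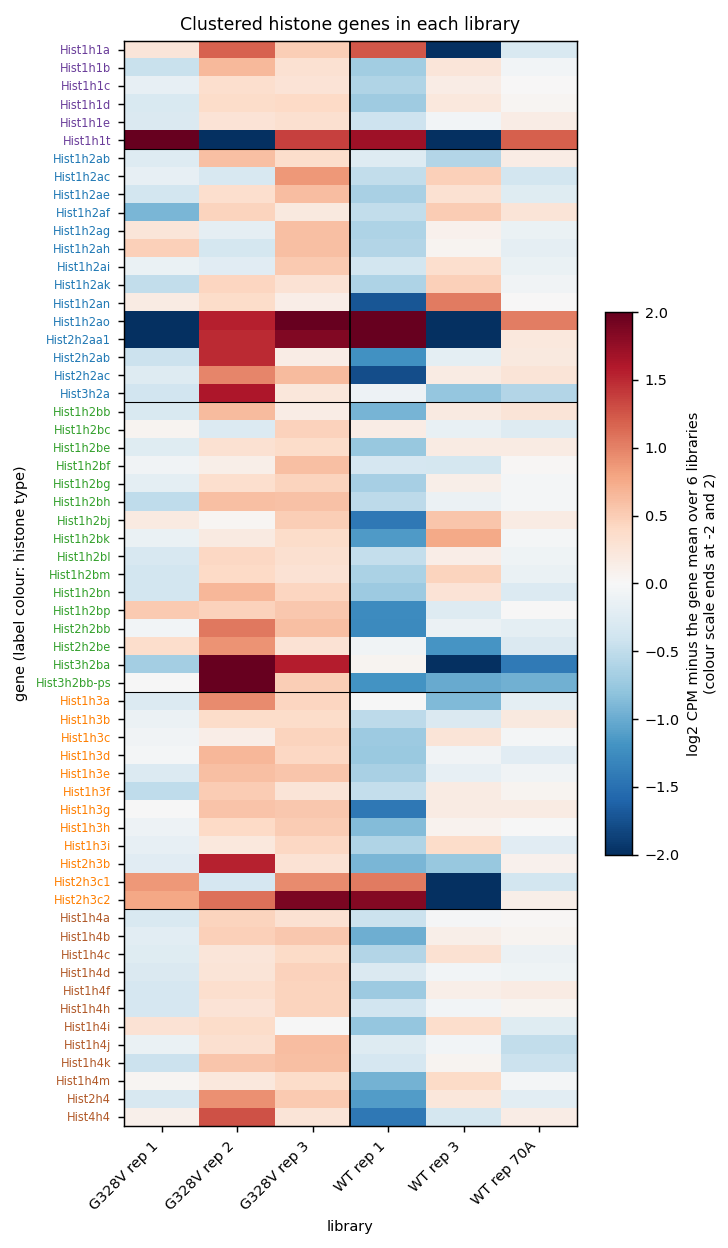
Level of each tested clustered histone gene (rows, grouped and coloured by type) in each library (columns, G328V left of WT), as log2 CPM minus the gene's mean over the 6 libraries. Most rows are lowest in WT rep 1, the lowest library for 42 of 60 genes, and highest in G328V rep 2 or rep 3.

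Differences were small in the Hist1 cluster and larger in the small clusters. The median log2 difference was 0.31 over the 47 tested members of Hist1, which spans 2219 kb of chromosome 13, and 46 of the 47 were positive. It was 0.73 over the 9 members of Hist2 on chromosome 3, 2.59 over the 3 members of Hist3 on chromosome 11 and 1.06 for the single Hist4 member on chromosome 6. The 13 members outside Hist1 were all positive. The sum over the 50 Hist1 genes was 3014 ± 675 CPM in G328V and 2420 ± 541 CPM in WT (mean and SD, n = 3 each). The 9 Hist2 genes together were at 286, 636 and 472 CPM in G328V, against 137, 317 and 292 CPM in WT, which overlapped because G328V replicate 1 lay just below WT replicates 3 and 70A. The log2 difference of the sum was 0.32 for Hist1 and 0.90 for Hist2, and without WT replicate 1 it was 0.14 and 0.61. Without G328V replicate 2 it was 0.22 for Hist1 and 0.61 for Hist2.

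By type the medians lay close together. The median log2 difference was 0.32 for H1, 0.35 for H2A, 0.42 for H2B, 0.58 for H3 and 0.35 for H4. The summed level was 1.22-fold for H1, 1.47-fold for H2A, 1.47-fold for H2B, 1.34-fold for H3 and 1.34-fold for H4, in each case as the ratio of the G328V to the WT mean. Groups overlapped in the sum of every type. Without WT replicate 1 the log2 difference of the sum was 0.13 for H1, 0.37 for H2A, 0.34 for H2B, 0.26 for H3 and 0.24 for H4, beside 0.28, 0.55, 0.55, 0.43 and 0.42 with it. Without G328V replicate 2 it was 0.17 for H1, 0.29 for H2A, 0.38 for H2B, 0.30 for H3 and 0.30 for H4.

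**Figure D2:**
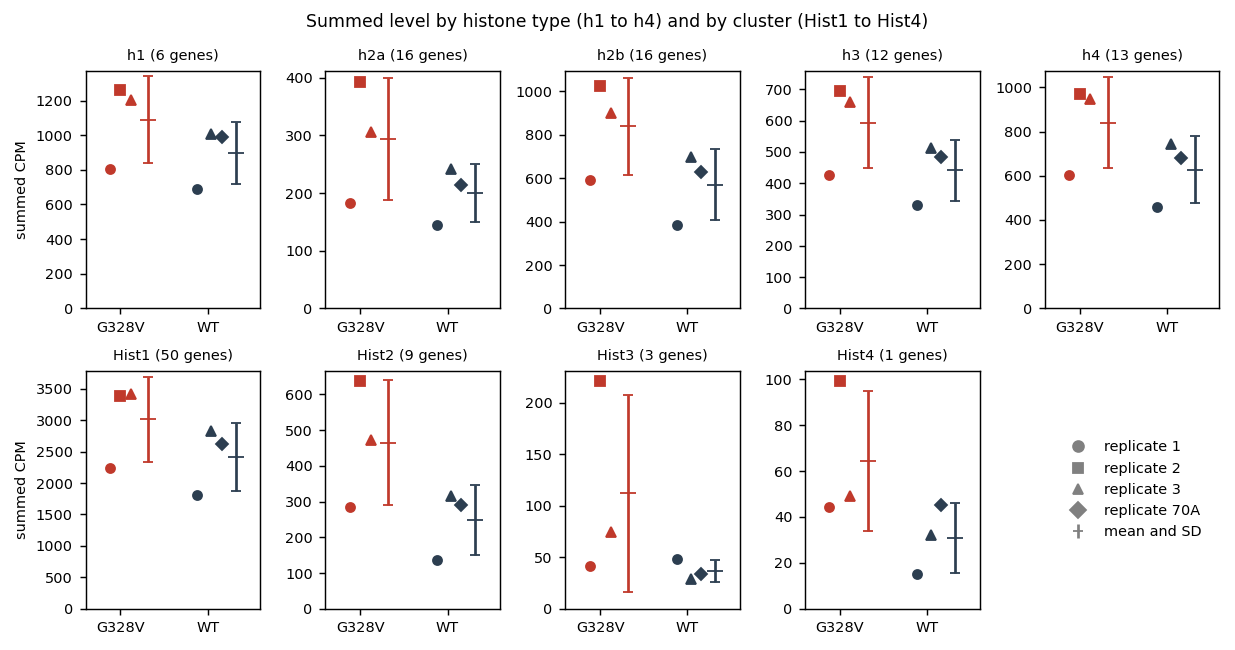
Summed CPM of clustered histone genes by type (top) and by cluster (bottom), 1 point per library, with the mean and SD of each group. The groups overlap in every panel, as in Hist2, where G328V rep 1 (286) lies below WT rep 3 (317).

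**Figure D3:**
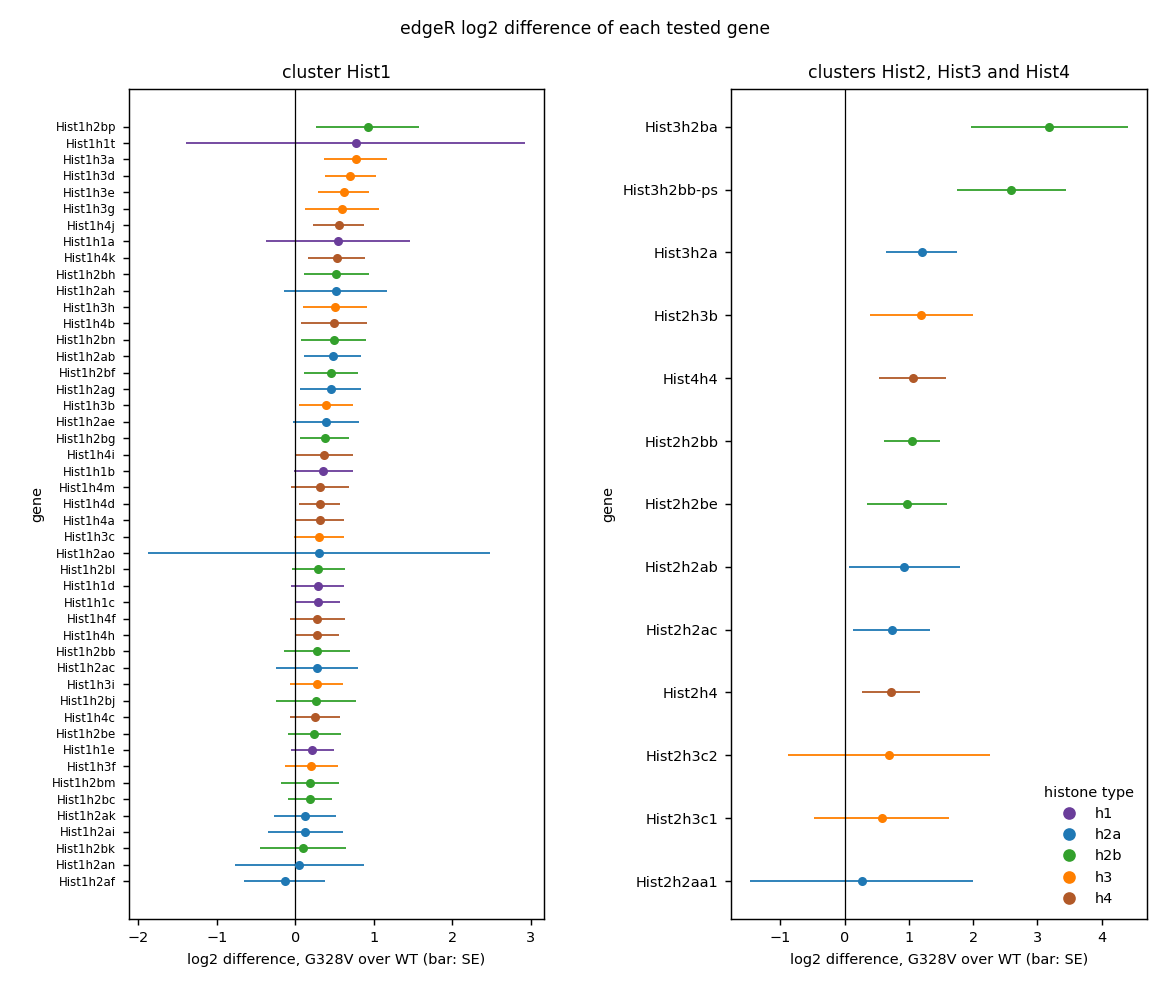
Fitted edgeR log2 difference, G328V over WT, of each tested gene, with its standard error, coloured by type. All but Hist1h2af (-0.13) lie above 0, and Hist3h2ba (3.18) and Hist3h2bb-ps (2.59) lie farthest from it.

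Hist3h2a and Hist3h2ba encode an H2A and an H2B, and Hist3h2bb-ps is annotated as a processed pseudogene. Hist3h2ba (chr11:58948920-58949533, GRCm38, plus strand) was at 3.66, 60.6 and 17.4 CPM in G328V, against 6.03, 0.773 and 2.19 CPM in WT. G328V replicate 1 lay below WT replicate 1, so the groups overlapped. Its log2 difference was 3.18 ± 1.22 (SE, edgeR unadjusted p = 0.0393, adjusted p = 0.997).

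Hist3h2bb-ps (chr11:58954048-58954512, minus strand) was at 4.20, 26.8 and 5.96 CPM in G328V, against 1.85, 2.09 and 2.18 CPM in WT. Every G328V library was above every WT library, with G328V replicate 2 far above the rest. The log2 difference was 2.59 ± 0.85 (SE, edgeR unadjusted p = 0.0217, adjusted p = 0.997). Hist3h2a (chr11:58954685-58956830, plus strand) was at 33.4, 133 and 51.1 CPM in G328V, against 40.5, 25.5 and 28.9 CPM in WT. Its log2 difference was 1.20 ± 0.55 (SE), and the groups overlapped.

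The Hist3 values rested largely on G328V replicate 2. Without that library the log2 differences were 1.81 for Hist3h2ba, 1.32 for Hist3h2bb-ps and 0.42 for Hist3h2a. The same library had the highest level of Sparcl1, while its other astrocyte genes summed lowest, and their part in the Hist3 values was not tested. Hist3h2bb-ps and Hist3h2a are transcribed away from each other from starts 173 bases apart, the closest of the 10 divergent pairs of an H2A and an H2B gene among the members.

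In the Hist2 cluster, Hist2h2bb, which encodes an H2B, stood out by its level. Hist2h2bb (chr3:96269752-96270132, plus strand) was at 164, 357 and 258 CPM in G328V, against 70.5, 157 and 149 CPM in WT. Every G328V library was above every WT library, G328V replicate 1 only just. The log2 difference was 1.05 ± 0.43 (SE, edgeR unadjusted p = 0.0491, adjusted p = 0.997), and 0.74 without WT replicate 1. Per kilobase of coding sequence it ranked 1 among the members in each G328V library, and 7, 5 and 4 in WT replicates 1, 3 and 70A. Only coding length was used, which is 381 of 381 annotated exon bases for Hist2h2bb and 660 of 1930 for Hist1h1e. Members also differ in how much sequence they share with other genes, so a rank between genes is approximate. Hist1h1e was below it in G328V, at 364 to 557 CPM per kb against 430.1 to 936 for Hist2h2bb, and above it in each WT library. No 50-base window of its coding sequence was found in a transcript of another gene that does not overlap it, but exons of Gm20628 and Gm42743 do overlap it.

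Hist2h2be encodes H2BE, a variant known in mouse for its expression in olfactory sensory neurons. It was low here, at 5.11, 7.45 and 4.88 CPM in G328V, against 3.84, 1.77 and 3.29 CPM in WT. The groups did not overlap, and the log2 difference was 0.97 ± 0.63 (SE).

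Among the other Hist2 genes, the groups overlapped for all 7. Hist2h2ac, an H2A gene, was at 40.8, 95.6 and 75.6 CPM in G328V, against 14.4, 54.9 and 58.5 CPM in WT, a log2 difference of 0.73 ± 0.59 (SE) that was 0.30 without WT replicate 1. Hist2h4, an H4 gene, was at 67.7, 159 and 122 CPM in G328V, against 39.3, 99.3 and 73.2 CPM in WT, a log2 difference of 0.72 ± 0.46 (SE) that was 0.41 without WT replicate 1. Both were lowest in WT replicate 1 and highest in G328V replicate 2. Hist2h3b, an H3.2 gene, was at 2.28, 7.76 and 3.29 CPM in G328V, against 1.41, 1.58 and 2.84 CPM in WT, a log2 difference of 1.19 that was 0.52 without G328V replicate 2. Hist2h2ab, Hist2h3c1, Hist2h3c2 and Hist2h2aa1 were at or below 6.43 CPM in every library. Their log2 differences were 0.93 ± 0.87, 0.57 ± 1.05, 0.69 ± 1.57 and 0.26 ± 1.74 (SE). For Hist2h2ab the difference was 0.17 without G328V replicate 2, and for Hist2h3c1 and Hist2h3c2 it was 0.093 and 0.099 without WT replicate 3.

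Hist4h4 (chr6:136801553-136804415, minus strand) is the sole member of its cluster and encodes the same type of histone as the H4 genes of Hist1. It was at 44.1, 99.4 and 49.2 CPM in G328V, against 15.2, 32.1 and 45.4 CPM in WT. G328V replicate 1 lay just below WT replicate 70A, so the groups overlapped. The log2 difference was 1.06 ± 0.52 (SE, edgeR unadjusted p = 0.0861), and 0.59 without G328V replicate 2.

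The H1 genes Hist1h1e, Hist1h1c, Hist1h1d and Hist1h1b were the most abundant of their type. Hist1h1e, which encodes H1.4, was at 241, 354 and 367 CPM in G328V, against 219.7, 282 and 326 CPM in WT, a log2 difference of 0.22 ± 0.28 (SE). Hist1h1c (H1.2), Hist1h1d (H1.3) and Hist1h1b (H1.5) had log2 differences of 0.29, 0.29 and 0.36. Each of the 4 overlapped between the groups. Without WT replicate 1 the log2 differences of Hist1h1e, Hist1h1c and Hist1h1d were 0.058, 0.076 and 0.038, and without G328V replicate 2 that of Hist1h1b was 0.10. Hist1h1a, which encodes H1.1, varied widely between libraries of a group, at 33.4, 64.0 and 39.9 CPM in G328V, against 67.2, 3.87 and 23.0 CPM in WT.

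Among H2A genes of Hist1, Hist1h2ak was the most abundant, at 30.4, 57.5 and 52.2 CPM in G328V, against 27.8, 59.6 and 40.8 CPM in WT. Its log2 difference was 0.13 and was -0.12 without WT replicate 1. Hist1h2ab had a log2 difference of 0.48 ± 0.37 (SE), and 0.28 without G328V replicate 2. The 10 tested H2A genes of Hist1 ranged from -0.13 to 0.51.

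Among H2B genes of Hist1, Hist1h2be was at 85.9, 125 and 131 CPM in G328V, against 60.3, 114 and 115 CPM in WT. The log2 difference was 0.24, and -0.023 without WT replicate 1. Hist1h2bg had a log2 difference of 0.38 ± 0.31 (SE), and 0.16 without WT replicate 1. Hist1h2bp was at 4.85, 4.67 and 4.89 CPM in G328V, against 1.40, 2.81 and 3.38 CPM in WT, with every G328V library above every WT library. Its log2 difference was 0.92 ± 0.66 (SE).

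For H4, Hist1h4h was the most abundant, at 110.1, 167 and 188 CPM in G328V, against 106, 133 and 143 CPM in WT, a log2 difference of 0.28 ± 0.28 (SE). Hist1h4d differed by 0.31 ± 0.26 (SE) and Hist1h4j by 0.56 ± 0.33 (SE). Without G328V replicate 3 the log2 differences of Hist1h4h, Hist1h4d and Hist1h4j were 0.12, 0.14 and 0.37. All 10 tested H4 genes of Hist1 lay between 0.25 and 0.56, and groups overlapped for each.

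The H3 genes split into 4 that encode H3.1 (Hist1h3a, Hist1h3g, Hist1h3h and Hist1h3i) and 8 that encode H3.2, read from the codon that separates the forms. It is shown for 2 genes of each form, in capitals, with 12 coding bases on either side on the gene's own strand (GRCm38).
Hist1h3a (H3.1, chr13:23762051-23762077, minus strand): ctgcaggaggccTGTgaggcctacctt
Hist1h3g (H3.1, chr13:23535722-23535748, plus strand): ctgcaggaggccTGTgaggcctacctc
Hist1h3d (H3.2, chr13:23576078-23576104, plus strand): ctgcaggaggcgAGCgaggcctacctc
Hist2h3b (H3.2, chr3:96268970-96268996, plus strand): ctgcaggaggcgAGCgaggcctacctg
TGT encodes cysteine and AGC serine, and each gene of a form had the same codon. Hist1h3a was at 38.4, 89.6 and 62.4 CPM in G328V, against 46.0, 25.1 and 40.6 CPM in WT, a log2 difference of 0.77 ± 0.41 (SE). The groups were not apart, and the value was 0.44 without G328V replicate 2. Hist1h3d was at 29.1, 47.7 and 40.0 CPM in G328V, against 17.9, 28.4 and 25.5 CPM in WT. Its groups did not overlap, and the log2 difference was 0.70 ± 0.32 (SE, edgeR unadjusted p = 0.0715, adjusted p = 0.997). Hist1h3e, also H3.2, differed by 0.62 ± 0.33 (SE). Hist1h3f, the most abundant H3 gene, was at 86.8, 176 and 147 CPM in G328V, against 88.7, 138 and 128 CPM in WT, a log2 difference of 0.21 that was -0.020 without G328V replicate 2. Hist1h3c, the next most abundant, differed by 0.30, and by 0.058 without WT replicate 1.

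Ratios between sets of members within a library do not depend on how libraries are scaled. Of 6 ratios computed, 4 did not overlap between the groups. These ratios share genes, Hist2h2bb among them, so they are not independent of each other. They were described after values of these genes were known and were not tested.

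The counts of H3.1 genes over those of H3.2 genes gave ratios of 0.430, 0.450 and 0.420 in G328V, against 0.408, 0.369 and 0.386 in WT. The lowest G328V library was just above the highest WT library. The means were 0.433 ± 0.015 in G328V and 0.388 ± 0.020 in WT (SD, n = 3 each). Gene by gene, the median log2 difference was 0.55 over the 4 H3.1 genes and 0.60 over the 8 H3.2 genes. Hist1h3a, whose groups overlapped, had the largest difference of the 4, at 0.77. The ratio was not computed without Hist1h3a, so it does not show a shift of all H3.1 genes. The ratio of H1 to core histone counts was lower in G328V, at 0.445, 0.409 and 0.429, against 0.522, 0.459 and 0.492 in WT. All 6 H1 genes lie in Hist1, while the core sum also holds Hist2 to Hist4. The log2 difference of the sum was 0.28 for H1 and 0.25, 0.29, 0.42 and 0.32 for H2A, H2B, H3 and H4 of Hist1. It was 1.02 for the 13 genes of Hist2 to Hist4. The ratio was not computed within Hist1, so it does not show a shift between linker and core histones.

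The summed Hist2 over Hist1 level was 0.128, 0.188 and 0.138 in G328V, against 0.0757, 0.112 and 0.111 in WT. Hist2h2bb alone, over all Hist1 H2B genes, was at 0.395, 0.621 and 0.421 in G328V, against 0.233, 0.292 and 0.316 in WT. In both, every G328V library was above every WT library, and WT replicate 1 was the lowest. Both ratios rest largely on the same gene, since Hist2h2bb is part of the Hist2 sum. The 2 H2B genes of Hist2, mostly Hist2h2bb, made 169, 364 and 263 of 286, 636 and 472 CPM in G328V. In WT they made 74.3, 159 and 152 of 137, 317 and 292 CPM. The Hist2 ratio was not computed without Hist2h2bb, so it does not show a shift of the whole cluster. Only the 4 ratios with groups apart were also computed from the Cufflinks values, which come from the same libraries. The groups were apart for each of the 4 there. The Hist3 over Hist1 level overlapped, at 0.0185, 0.0651 and 0.0218 in G328V and 0.0268, 0.0100 and 0.0127 in WT.

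**Figure D4:**
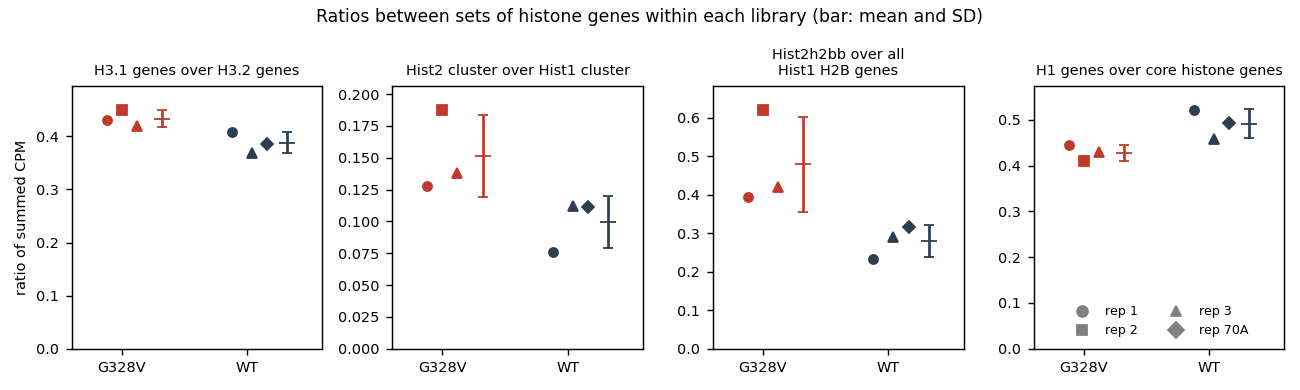
Ratios between sets of clustered histone genes in each library, with the mean and SD of each group. The G328V libraries lie above the WT libraries in the first 3 panels, as for Hist2 over Hist1 (0.128 to 0.188 against 0.0757 to 0.112), and below them for H1 over core histones (0.409 to 0.445 against 0.459 to 0.522).

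Genes of DNA replication, which are active in the same phase of the cell cycle, were set beside the histones as a list of 31. Their summed level was 3976, 4095 and 4150 CPM in G328V, against 2595, 3748 and 3567 CPM in WT, and the groups did not overlap. Of the 31, 24 had a positive log2 difference and 7 a negative one, with a median of 0.27, and 0 were called by edgeR or DESeq2. Rrm2, a subunit of ribonucleotide reductase, was at 419, 515 and 486 CPM in G328V, against 181, 267 and 294 CPM in WT, a log2 difference of 0.94 ± 0.26 (SE, edgeR unadjusted p = 0.0115). Mcm5 and Mcm2, subunits of the replicative helicase, differed by 0.68 and 0.56 on the log2 scale with groups apart. The ratio of summed histone to summed replication genes was 0.655, 1.06 and 0.968 in G328V, against 0.773, 0.856 and 0.839 in WT. G328V replicate 1 was the lowest and the other G328V libraries the highest, so this ratio did not separate the groups.

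Of 24 genes for the synthesis, 3′ end processing and turnover of histone mRNA, 13 were higher and 11 lower, with a median log2 difference of 0.037 and 0 called by edgeR or DESeq2. Slbp, which encodes the stem-loop binding protein, was at 41.3, 52.6 and 56.3 CPM in G328V, against 44.5, 70.1 and 63.3 CPM in WT, and the groups overlapped. Npat, the coactivator of histone transcription, had a log2 difference of -0.018 ± 0.32 (SE). Coil, which encodes the Cajal body protein coilin, was at 18.0, 18.8 and 22.1 CPM in G328V, against 10.3, 11.4 and 12.1 CPM in WT, a log2 difference of 0.80 (edgeR unadjusted p = 0.0392). Cdk2, the kinase that phosphorylates NPAT, was at 73.0, 70.7 and 71.5 CPM in G328V, against 108, 107 and 82.3 CPM in WT, a log2 difference of -0.46. Groups were apart for both. Ncbp2, a subunit of the nuclear cap-binding complex, differed by -0.72 ± 0.38 (SE).

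Of 19 nucleosome assembly factors and histone chaperones tested, 12 were higher and 7 lower, with a median of 0.064. Cabin1, of the HIRA complex, differed by -0.74 ± 0.41 (SE), Nap1l4 by 0.28 and Ubn1 by -0.37. Histone genes outside the clusters, listed here as independent of replication, had 7 of 11 tested members higher, with a median of 0.27. H2afy, which encodes macroH2A1, was at 104, 69.8 and 91.3 CPM in G328V, against 223, 120.3 and 114 CPM in WT. Its groups did not overlap, and the log2 difference was -0.78 ± 0.35 (SE). H1fx and H2afj differed by 1.77 and 0.47. H3f3a and H3f3b, which encode H3.3, had log2 differences of 0.059 ± 0.26 and -0.32 ± 0.23 (SE). None of these members was called by edgeR or DESeq2.

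The summed oligodendrocyte-lineage list was at 21.7 to 319.8 CPM in G328V and 69.3 to 1094 CPM in WT. The top value was that of WT replicate 1, where most histone members were lowest. Olig1 (614 CPM) and Olig2 (416 CPM) made most of that sum. Of the other genes in the list, Pdgfra was lowest in that library, at 9.64 CPM, and Cnp highest, at 48.0 CPM. The neural stem cell list summed to 2529 to 3891 CPM in G328V and 2459 to 10073 CPM in WT, again highest in WT replicate 1, where Tnc was at 4051 CPM. Of the tested genes, 4 of 7 of the oligodendrocyte lineage, 3 of 11 of neural stem cells and 6 of 9 of astrocytes had positive log2 differences. Their part in the histone differences was not tested. Neuron genes summed to 24.1 to 271 CPM in G328V and 65.3 to 282 CPM in WT, microglia genes to 24.7 to 64.7 CPM in G328V and 2.18 to 82.3 CPM in WT, and endothelial genes to 1.52 to 19.7 CPM in G328V and 3.43 to 39.5 CPM in WT. Rn45s, the ribosomal RNA precursor left after depletion, took 4.17%, 4.39% and 3.16% of counts in G328V and 8.21%, 4.73% and 10.7% in WT.

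Promoters are shown for Hist2h2bb, whose groups did not overlap, and for the Hist3 genes, whose log2 differences were the largest. The window of Hist3h2a also covers the start of Hist3h2bb-ps on the other strand. Windows of 300 bases, from 250 before to 50 after the start, were available from RefSeq (GRCm38.p6) for 57 members, 58 windows in all. They were searched on both strands for the octamer ATTTGCAT, bound by OCT1, the CCAAT box CCAAT, and the TATA box TATAAA, each shown in capitals where it occurs.
Hist2h2bb (chr3:96269450-96269749, plus strand): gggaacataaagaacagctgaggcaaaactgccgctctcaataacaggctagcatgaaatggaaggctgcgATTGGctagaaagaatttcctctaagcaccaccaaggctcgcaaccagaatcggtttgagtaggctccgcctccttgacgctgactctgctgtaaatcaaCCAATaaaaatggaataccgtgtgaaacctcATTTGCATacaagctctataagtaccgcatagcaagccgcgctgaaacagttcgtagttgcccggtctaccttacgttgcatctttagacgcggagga
Hist3h2ba (chr11:58948661-58948960, plus strand): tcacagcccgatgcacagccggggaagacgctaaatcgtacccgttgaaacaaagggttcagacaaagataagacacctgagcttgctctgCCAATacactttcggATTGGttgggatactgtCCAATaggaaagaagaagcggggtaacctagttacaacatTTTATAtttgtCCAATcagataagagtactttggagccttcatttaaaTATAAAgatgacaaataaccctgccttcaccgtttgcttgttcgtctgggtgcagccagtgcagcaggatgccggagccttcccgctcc
Hist3h2a (chr11:58954435-58954734, plus strand): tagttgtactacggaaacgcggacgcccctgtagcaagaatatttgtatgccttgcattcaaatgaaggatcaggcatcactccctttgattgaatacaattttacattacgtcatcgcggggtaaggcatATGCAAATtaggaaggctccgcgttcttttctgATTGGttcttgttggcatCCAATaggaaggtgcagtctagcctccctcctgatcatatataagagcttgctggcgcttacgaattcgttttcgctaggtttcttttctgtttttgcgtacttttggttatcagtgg
The octamer was in 13 of the 58 windows (22.4%), beside 1.74% of 32851 windows of all genes. All 13 were H2A (7 of 16) or H2B (6 of 14) windows. The CCAAT box was in 49 of 58 (84.5%), beside 37.4% of all windows, and in 3 of the 12 H4 windows. The TATA box was in 34 of 58 (58.6%), beside 13.6% of all windows. These are matches of letters, not measured binding, and adjacent divergent genes share parts of their windows.

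Near-identical sequence limits which gene a read can be given to. Over 63 members, a median of 72.4% of 50-base coding windows (exon windows for the pseudogene) occurred in a transcript of another gene that does not overlap the member. The share was 0% for 6 members, at least 50% for 47 and 100% for 8. The medians were 11% for H1, 81.5% for H2A, 72.5% for H2B, 85.4% for H3 and 71.2% for H4. Single core histone genes are therefore uncertain and their sums by type less so. In the 15 tested members with under 50% shared windows, 15 were positive with a median log2 difference of 0.77. In the 45 with 50% or more, 44 were positive with a median of 0.37. The first set holds all 6 tested H1 genes and 8 of the members outside Hist1. This split was made after the values were seen.

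HTSeq counts per Cufflinks fragment show where the deposited tables disagree. Genes with at least 500 counts in every library, 8924 in all, had a median of 1.96, close to a count for each read of a pair. Of members with at least 500 fragments, Hist1h4m was farthest from it, at 1.04 counts per fragment, and 100% of its windows are shared. Hist2h2ab, Hist1h4j, Hist1h4k and Hist1h4d followed at 1.52, 1.53, 1.53 and 1.58. Hist1h4k differed by 0.53 and Hist1h4m by 0.32 between the groups on the log2 scale, and by 0.47 and 0.34 from the Cufflinks values. Without WT replicate 1 the log2 difference of Hist1h4m was 0.016. From the Cufflinks table, 57 of 58 tested members were positive with a median of 0.40, and groups were apart for 6 members, the 5 named above and Hist1h4j, all with G328V higher.

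**Figure D5:**
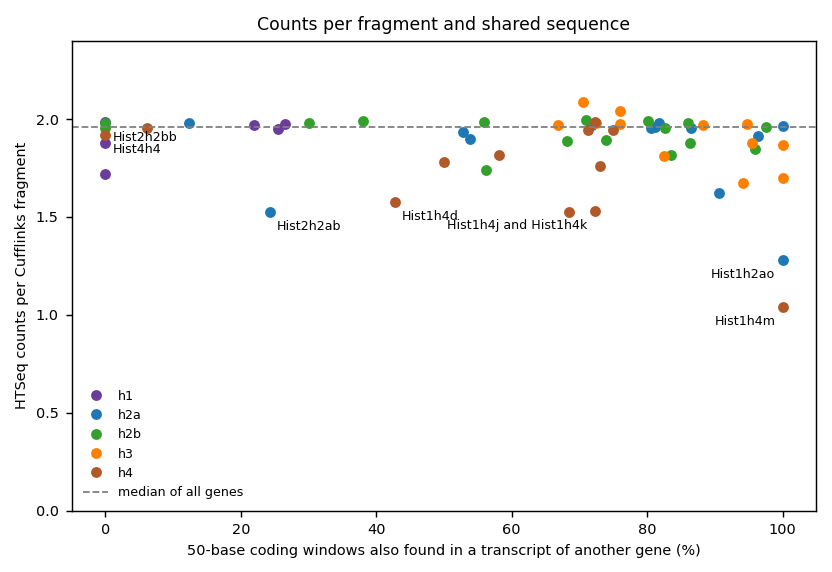
HTSeq counts per Cufflinks fragment, summed over the 6 libraries, against the share of 50-base coding windows found in a transcript of another gene, 1 point per member, coloured by type. The dashed line is the median of all genes (1.96), and Hist1h4m, with 100% of windows shared, lies lowest at 1.04.

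Some testis forms and some copies of other members were near absence. Not all copies were, since Hist1h2ag, with 100% of windows shared, was at 9.01 CPM in WT replicate 1, its lowest library. Hist1h2aa, an H2A gene of the testis, had 0, 4 and 0 counts in G328V and 0 in every WT library, and Hist1h2ad had 0 in every G328V library and 0, 4 and 0 counts in WT. Hist1h4n had 2, 0 and 3 counts in G328V, against 0, 0 and 4 in WT. These 3 were not tested. Hist1h2ad and Hist1h4n share 100% of their windows with other genes, so their low counts may not measure their own mRNA. Hist1h1t, the testis H1, had 44, 0 and 18 counts in G328V, against 15, 0 and 15 in WT. A further 5 clustered histone genes were listed in the Cufflinks table alone, Hist1h2ap, Hist1h2ba, Hist1h2bq, Hist1h2br and Hist2h2aa2, of which Hist1h2br was highest, at 9, 5 and 38 estimated fragments in G328V, against 12, 9 and 11 in WT.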

How the data were processed

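RNA-seq libraries of 6 neurosphere samples were analysed, grouped by the genotype in the labels, 3 with G328V and 3 WT. Per the submitters' processing notes, TopHat2 2.0.13, Bowtie2 2.2.1, FastQC 0.11.3 and the build mm10 were used, without their roles. Not given in the sources used here are how reads were assigned to genes, whether by strand, and the annotation. Raw counts per gene symbol for 17551 genes are in the deposited HTSeq table, about 2 counts per fragment, so counts are not independent molecules. The authors' Cufflinks table gives 23107 genes as estimated counts of fragments, here rounded to whole numbers before testing. All columns were matched to samples, leaving 0.

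The test on the counts of all genes was that of edgeR 4.0.16 in R 4.3.3 (quasi-likelihood, legacy robust fit, TMM, filterByExpr with a minimum count of 10) and Benjamini-Hochberg adjustment over 14643 genes at 0.05. Alternatives were limma-voom (limma 3.58.1) and DESeq2 1.42.0, and the 1030 genes with no adjusted p in DESeq2 were left as such. The edgeR step was tested on simulated data. CPM values use TMM-scaled library sizes of 115953495 to 191115532 counts before scaling. At this depth the spread between libraries exceeds counting error for most members. Levels of different genes were compared per kilobase of coding sequence of GENCODE M21 on GRCm38, the assembly that mm10 names.

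The members, gene lists, ratios and tests were chosen with earlier results of these data known. Named members were, within each type, the 3 with the highest mean CPM and the 3 with the smallest p, all of Hist2 to Hist4, those with groups apart, those at 0 in a group and those whose counts per fragment lay farthest from the median. From each list of other genes in histone metabolism, up to 3 with the smallest p were named, with Slbp, Npat, H3f3a and H3f3b added after their values were seen. The cell type lists were summed.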

Additional observations from a re-analysis of the deposited data

How the results depend on the processing

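The number of called members was 0 under each of the 15 alternatives. The median log2 difference lay between 0.37 and 0.52 with other scalings, filters, tests and the Cufflinks table, with the highest under total counts, which moved the median of all genes to 0.12. It ranged from 0.24 without WT replicate 1 to 0.55 without WT replicate 3. The summed level ranged from 0.24 to 0.61 when a library was left out, and was 0.40 to 0.54 with other scalings, the Cufflinks table, geometric means or, chosen after seeing the data, without Rn45s. Of 60 members, 59 were positive under TMM, DESeq2 size factors and total counts. Counts by direction in each setting were also added after seeing the data. The G328V and WT labels share the numbers 1 and 3, and the deviations of same-numbered libraries correlated at 0.18 and 0.21, too few pairs to show pairing. With the replicate block 0 members were called, the median was 0.40 and 57 of 60 were positive, and Hist1h2ak (-0.032) and Hist2h2aa1 (-0.087) were negative. Leaving out a library gave -0.12 to 0.42 for Hist1h2ak, -0.023 to 0.41 for Hist1h2be, -0.020 to 0.45 for Hist1h3f and -0.31 to 1.76 for Hist2h2aa1, and the cause was not tested. Where a group was left with 2 libraries, both groups were taken to vary alike. With 3 libraries a group, an exact two-sided permutation test cannot go below 0.10. Depth limits mainly Hist1h1t, Hist1h2ao and Hist2h2aa1, with at most 67 counts in any library.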
